A study of Mus musculus with 19 samples.

Results

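The imprinted loci *Peg3*, *Peg10*-*Sgce*, *Mest* and *Nap1l5* were followed through 3 repressive histone marks after deletion of *Dnmt1* in mouse embryonic stem cells (ESCs). A member was any 2 kb tile of the genome within 50 kb of the annotated bodies of *Peg3*, *Usp29*, *Zim1*, *Peg10*, *Sgce*, *Mest* or *Nap1l5*. This gave 341 of 1327469 tiles, with 131 around *Peg3*, *Zim1* and *Usp29*, 94 around *Peg10* and *Sgce*, 64 around *Mest* and 52 around *Nap1l5*. At each locus 1 tile was set as the imprinting control region. The rule uses the names of the genes and the given positions of the control-region tiles, and no measured value. The members were, however, chosen with earlier results of these data known. Of the 341 tiles, 318 held reads; the 23 without reads lay in the *Mest* window, where 24 tiles hold unknown bases in the genome assembly.

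Chromatin immunoprecipitation with sequencing (ChIP-seq) was done for H3K9me3, H3K9me2 and H3K27me3. Each mark had 1 control and 1 knockout library at day 4 of the deletion and 2 control and 2 knockout libraries at day 8, with 1 input library from control cells. The labels name the genotypes Wildtype and Dnmt1 KO and the background strain E14, while the methods describe C57BL/6 ESCs with floxed *Dnmt1* alleles in which tamoxifen activates Cre, grown in serum and LIF. The knockout libraries are called cKO here. The study describes its ChIP-seq as a single measurement that allowed no call of significance, while the labels number the day 8 libraries as replicates. Nothing states that they came from separate cultures, so the p values measure only the spread between libraries, which may be technical. Libraries of the same number are set side by side as pairs for description, although nothing states that a number marks a shared culture or day. Reads of both parental alleles are summed, and a loss on 1 allele in every cell cannot be told apart from a loss on both alleles in some cells.

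Genomic imprinting marks 1 parental copy of a locus with DNA methylation laid down in the germline, and the control region carrying it decides which copies of the nearby genes are expressed. The control regions of these 4 loci carry the methylation on the maternal copy. DNMT1 copies methylation onto new DNA strands at each cell division. On a methylated control region the zinc-finger protein ZFP57 binds the sequence TGCCGC and, through KAP1, brings in the enzyme that places H3K9me3, so this mark sits on the methylated copy. *Peg3*, *Peg10*, *Sgce*, *Mest*, *Nap1l5* and *Usp29* are expressed from the paternal copy, and *Zim1* is expressed from the maternal copy.

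The control-region tiles lie over the start sites of their genes in the NCBIM37 assembly, to which the reads had been aligned. The *Peg3* tile covers chr7:6682001-6684000 and holds the untranslated first exon of *Peg3* (minus strand) and the upstream and intronic sequence beside it. The *Peg10*-*Sgce* tile, chr6:4696001-4698000, holds the starts of both genes, which run in opposite directions. The *Mest* tile, chr6:30688001-30690000, holds the first exon of 5 *Mest* transcripts (plus strand) inside the longer annotated gene. The *Nap1l5* tile, chr6:58856001-58858000, holds most of the single-exon gene *Nap1l5* (minus strand), which lies within *Herc3*. They are rich in CpG, the site of DNA methylation, with 94 CpG sites at *Peg3*, 112 at *Peg10*-*Sgce*, 83 at *Mest* and 75 at *Nap1l5*. Only 0.879% of the tiles without unknown bases hold 75 or more.

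TGCCGC was searched on both strands, where it reads GCGGCA on the minus strand. It occurred 6 times in the *Peg3* tile, 2 times in the *Peg10*-*Sgce* tile, 7 times in the *Mest* tile and 5 times in the *Nap1l5* tile. At least 1 match is found in 10.9% of all tiles without unknown bases, at least 2 in 1.51% and at least 5 in 0.0289%. Among the tiles with 75 or more CpG sites, 32.3% hold at least 2 and 2.48% at least 5. The stretch outside annotated exons with the most matches is printed for each control region, on the plus strand of NCBIM37 with the matches in capitals, because these are the CpG-holding letters of the regions whose H3K9me3 is measured. The *Peg3* stretch (chr7:6682687-6682886) and the *Mest* stretch (chr6:30688336-30688535) are intronic, the *Peg10* stretch (chr6:4697760-4697959) lies in the first intron of *Peg10*, and the *Nap1l5* stretch (chr6:58857121-58857250) lies just upstream of the *Nap1l5* start.
Peg3: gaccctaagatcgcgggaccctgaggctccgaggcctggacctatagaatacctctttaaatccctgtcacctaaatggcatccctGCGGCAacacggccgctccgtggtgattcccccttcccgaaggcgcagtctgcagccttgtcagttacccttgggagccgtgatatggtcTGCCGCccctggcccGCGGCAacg
Peg10-Sgce: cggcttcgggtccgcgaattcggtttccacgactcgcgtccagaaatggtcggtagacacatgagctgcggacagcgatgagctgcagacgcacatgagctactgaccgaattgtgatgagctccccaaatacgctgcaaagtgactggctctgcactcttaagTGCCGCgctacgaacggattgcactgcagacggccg
Mest: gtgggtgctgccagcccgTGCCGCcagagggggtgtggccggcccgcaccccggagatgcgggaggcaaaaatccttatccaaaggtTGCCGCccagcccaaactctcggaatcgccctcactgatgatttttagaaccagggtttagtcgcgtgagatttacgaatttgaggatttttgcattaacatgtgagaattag
Nap1l5: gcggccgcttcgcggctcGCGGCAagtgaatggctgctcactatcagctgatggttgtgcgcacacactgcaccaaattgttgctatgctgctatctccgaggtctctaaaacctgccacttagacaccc

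The first intron of *Peg3* also holds a cluster of GCCATNTT, a sequence bound by the zinc-finger protein YY1. The tile chr7:6680001-6682000 next to the control-region tile holds 10 matches on either strand. Only 38 of 1278688 tiles without unknown bases, 0.00297%, hold 10 or more, while 37.6% hold at least 1. The 300 bases with the most matches (chr7:6680974-6681273, plus strand, intronic) are printed with the matches in capitals.
Peg3 intron: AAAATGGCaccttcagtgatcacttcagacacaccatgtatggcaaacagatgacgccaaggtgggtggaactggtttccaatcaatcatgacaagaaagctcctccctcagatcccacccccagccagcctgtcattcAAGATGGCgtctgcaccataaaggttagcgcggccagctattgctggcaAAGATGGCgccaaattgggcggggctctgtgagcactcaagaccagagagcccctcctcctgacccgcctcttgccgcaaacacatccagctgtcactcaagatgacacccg

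The libraries held 14627174 to 26181489 reads in tiles, except H3K9me3 cKO library 1 of day 8 with 5669098 reads. The deletion was visible in a tile of *Dnmt1* (chromosome 9, 20744001 to 20746000), chosen after its values were seen: the 6 day 8 control libraries held 49 reads there and the 6 cKO libraries 1 read. At day 4 the 3 control libraries held 23 reads and the 3 cKO libraries 9 reads. The log2 level of H3K27me3 in start-site tiles of control cells lay between 3.67 and 4.11 at the lineage genes *Gata6*, *Sox17*, *Pax6*, *T* and *Hand1* and was -2.12 at *Pou5f1*, -1.26 at *Nanog* and -0.43 at *Sox2*, but 1.71 at *Klf4* and 4.25 at *Esrrb*.

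H3K9me3 was high at all 4 control regions in control cells and low in day 8 cKO cells. Averaged over the 3 control libraries, the control-region tile was the highest H3K9me3 tile of its window at every locus. It lay above 99.9% of all tiles with a control read. The order of the mean control levels in RPM (reads in the tile per 1000000 reads of the library), all from tiles of the same length, was *Peg3* with 6.98 ± 2.63 (SD, n = 3), *Nap1l5* with 6.46 ± 1.55, *Mest* with 5.97 ± 2.17 and *Peg10*-*Sgce* with 4.65 ± 1.10. Neighbours in that order did not differ by more than their spread.

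At the *Peg3* control region the day 8 control libraries held 185 and 91 reads of H3K9me3, which is 9.86 and 4.70 RPM. The day 8 cKO libraries held 12 and 6 reads, or 2.12 and 0.308 RPM, and the input held 14 reads, or 0.736 RPM. Both cKO libraries lay below both controls, with library 1 above the input and library 2 below it. With the reads of both libraries summed, H3K9me3 in RPM was 10.1-fold lower (exact 95% binomial interval 6.28 to 17.3). Summing gives cKO library 2 more weight than cKO library 1, which has fewer reads. As a ratio the summed value was 0.0989 (0.0578 to 0.159). Pair 1 gave 0.215, outside this interval, and pair 2 gave 0.0656. Intervals cover counting error only and leave out the spread between libraries. The reads carry no molecular identifiers, so duplicate reads may make the intervals too narrow. *Peg3* encodes a zinc-finger protein.

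At the shared start of *Peg10*, a gene derived from a retrotransposon, and *Sgce*, the gene of epsilon-sarcoglycan, the day 8 control libraries held 107 and 68 reads (5.70 and 3.51 RPM). The day 8 cKO libraries held 9 and 11 reads (1.59 and 0.565 RPM), against 11 reads in the input (0.579 RPM). The groups did not overlap, and the second cKO library stood at the input level. The summed level was 5.77-fold lower (3.62 to 9.68), a ratio of 0.173 (0.103 to 0.276). The 2 pairs gave ratios of 0.278, just outside this interval, and 0.161.

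At *Mest*, which encodes a protein of the alpha/beta hydrolase fold, the day 8 control libraries held 159 and 91 reads (8.47 and 4.70 RPM). The day 8 cKO libraries held 16 and 24 reads (2.82 and 1.23 RPM), and the input 8 reads (0.421 RPM). The groups did not overlap, and both cKO libraries stayed above the input, by 6.71-fold and 2.93-fold. The summed level was 4.12-fold lower (2.94 to 5.91).

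At *Nap1l5*, a relative of the nucleosome assembly protein genes that sits inside *Herc3*, the day 8 control libraries held 154 and 115 reads (8.21 and 5.94 RPM). The day 8 cKO libraries held 8 and 10 reads (1.41 and 0.514 RPM), and the input 16 reads (0.842 RPM). The summed level was 9.85-fold lower (6.12 to 16.9), a ratio of 0.102 (0.0592 to 0.164). The 2 pairs gave ratios of 0.172, outside this interval, and 0.0865. The cKO libraries lay on either side of the input, as at *Peg3*. At all 4 control regions the level of cKO library 1, the shallowest library, was above that of cKO library 2; the part of depth in this was not tested.

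**Figure D1:**
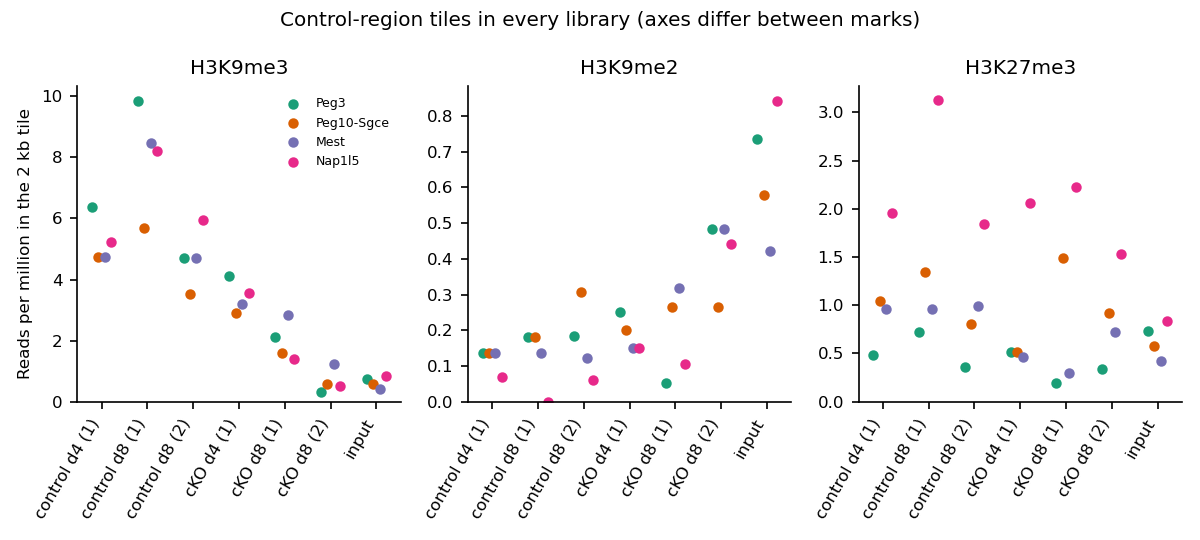
Reads in RPM (vertical axis, from 0, with its own scale for each mark) in the 4 control-region tiles (colours) for every library (horizontal axis, with the day and the replicate number), 1 point per tile and library. For H3K9me3 the points of both day 8 cKO libraries lie below those of all control libraries, and for H3K9me2 cKO library 2 of day 8 lies above every control library at *Peg3*, *Mest* and *Nap1l5*.

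The test was limma with a variance trend on the deposited log2 values of all tiles, 2 cKO against 2 control libraries at day 8, with Benjamini-Hochberg adjustment over 1256638 tiles. The mean log2 difference was -3.08 at *Peg3* (SE 0.49, adjusted p = 0.0111), -2.24 at *Peg10*-*Sgce* (SE 0.38, adjusted p = 0.0266) and -3.04 at *Nap1l5* (SE 0.37, adjusted p = 0.000736). At *Mest* it was -1.76 (SE 0.37, adjusted p = 0.198), which missed the threshold of 0.05. The differences of the 2 day 8 pairs were -2.22 and -3.93 at *Peg3*, -1.84 and -2.64 at *Peg10*-*Sgce*, -1.59 and -1.93 at *Mest*, and -2.54 and -3.53 at *Nap1l5*.

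Several of these calls rest on how the spread is estimated and on single libraries. Without the trend all 4 adjusted p values were 0.773, with limma-voom all 4 control regions passed, and the direction was lower in each of the alternatives run. Without control library 1 the *Peg10*-*Sgce* difference was -1.89 with an adjusted p of 0.774. *Mest* passed without cKO library 1 (-2.36) and without cKO library 2 (-1.16). The *Peg3* difference was -4.46 without cKO library 1 and -1.69 without cKO library 2, the *Peg10*-*Sgce* difference -2.99 and -1.50, and the *Nap1l5* difference -3.76 and -2.31.

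Of the 318 member tiles tested, 3 passed the test for lower H3K9me3, and these were the control-region tiles of *Peg3*, *Peg10*-*Sgce* and *Nap1l5*. Over all tiles 0.00812% passed in that direction. None of the member tiles passed for higher H3K9me3, where the share over all tiles was 0.000398%. The count of 3 changed when any 1 library was left out, which leaves 1 library in its group. Among members, calls for higher H3K9me3 arose only without cKO library 2, where the shallow library alone stood for cKO. In that fit the calls over the genome were far more numerous than in the full fit. By the fold alone, H3K9me3 was reduced to 0.5 times the control or less in each day 8 pair in 14 of 237 member tiles with a mean of at least 10 reads, against 1.51% of all such tiles. It was raised 2-fold or more in each pair in 2 member tiles, against 0.86%. Of the 14, 12 lay within 10 kb of a control-region tile: 5 at *Peg3*, 2 at *Peg10*-*Sgce*, 2 at *Mest* and 3 at *Nap1l5*. The other 2 were an intergenic tile 30 kb upstream of the *Peg3* tile and a tile over a *Fam13a* exon 26 kb from *Nap1l5*. The 2 higher tiles were in a *Casd1* exon and an *Sgce* intron.

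**Figure D2:**
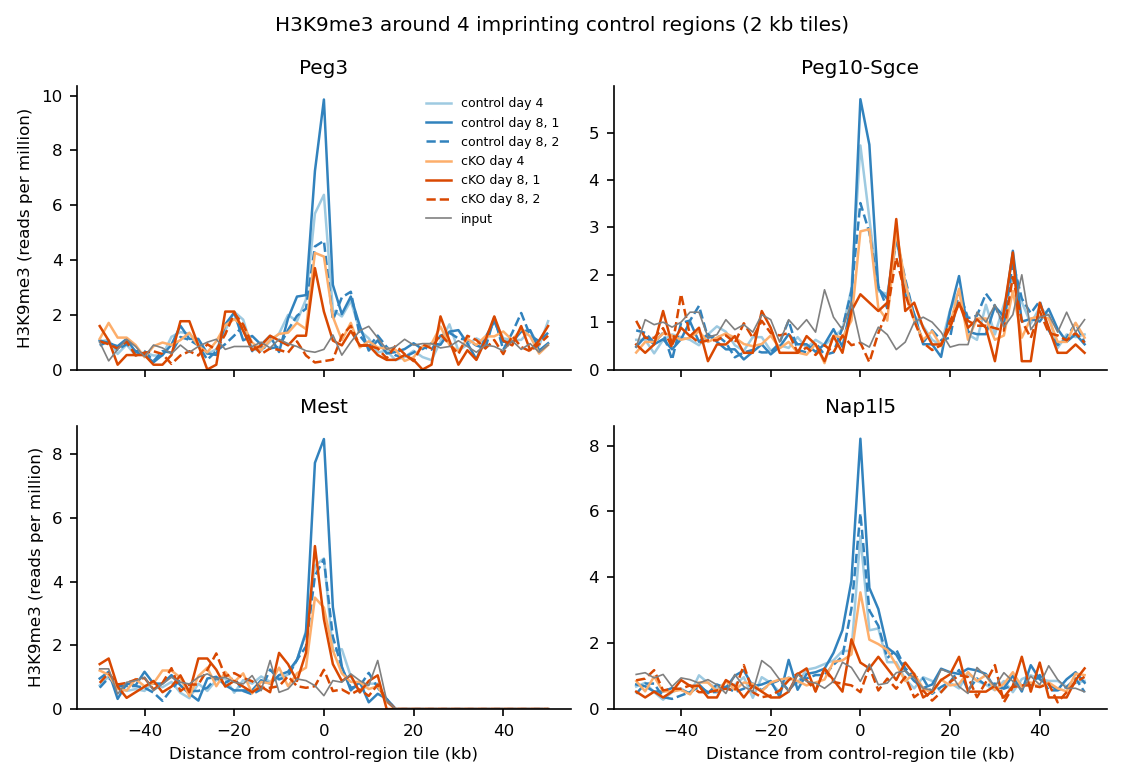
H3K9me3 in RPM (vertical axis) by distance in kb from the control-region tile (horizontal axis) at the 4 loci, 1 line per library, blue for control, orange for cKO and grey for input. The peak at distance 0 is lower in the day 8 cKO libraries at each locus, while the peaks 8 and 34 kb from the *Peg10*-*Sgce* tile have similar heights in all libraries. The *Mest* lines stay at 0 from 16 kb on, where the tiles held no reads.

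The H3K9me3 peaks were wider than 1 tile, and so was the decrease. The *Peg3* tile with the YY1 motifs held 136 and 87 reads in the day 8 controls and 21 and 5 in cKO cells, a log2 difference of -2.55 (SE 0.59, adjusted p = 0.338). The values of the 2 pairs lay far apart there, at -0.97 and -4.13. The tile in the first intron of *Peg10*, 2 kb from the control-region tile, held 89 and 56 reads in controls and 8 and 3 in cKO cells, a difference of -2.99 (SE 0.55, adjusted p = 0.0621). At *Mest* the tile 2 kb downstream, which also holds the miRNA gene *Mir335*, had 60 and 44 reads in controls and 8 and 11 in cKO cells (-1.59, SE 0.38, adjusted p = 0.400). On the other side, 2 kb upstream, the *Mest* peak was nearly as high as in the control-region tile, with 145 and 81 reads in controls and 29 and 14 in cKO cells, and there cKO library 1 lay above control library 2 once scaled to depth. At *Nap1l5* a tile with a coding exon of *Herc3*, 4 kb away, had 45 and 31 reads in controls and 3 and 15 in cKO cells (-1.62, SE 0.39, adjusted p = 0.404). Apart from the upstream *Mest* tile, each was the tile with the largest change of its window outside the control region among those with a mean of at least 10 reads, and none of these 4 passed the test.

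Beyond 4 kb the difference was smaller at every locus. In summed reads, the mean log2 ratio of the 2 day 8 pairs in the tiles 6 to 10 kb away was -0.68 ± 0.01 (SD, n = 2 pairs) at *Peg3*, -0.14 ± 0.05 at *Peg10*-*Sgce*, -0.17 ± 0.62 at *Mest* and -0.57 ± 0.10 at *Nap1l5*. At 12 to 50 kb it was -0.19 ± 0.03, -0.09 ± 0.03, 0.27 ± 0.13 and -0.14 ± 0.19 in the same order. Over all tiles tested the median difference was -0.04. Of the *Mest* tiles at 12 to 50 kb, those from 16 kb on at the downstream side held no reads.

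**Figure D3:**
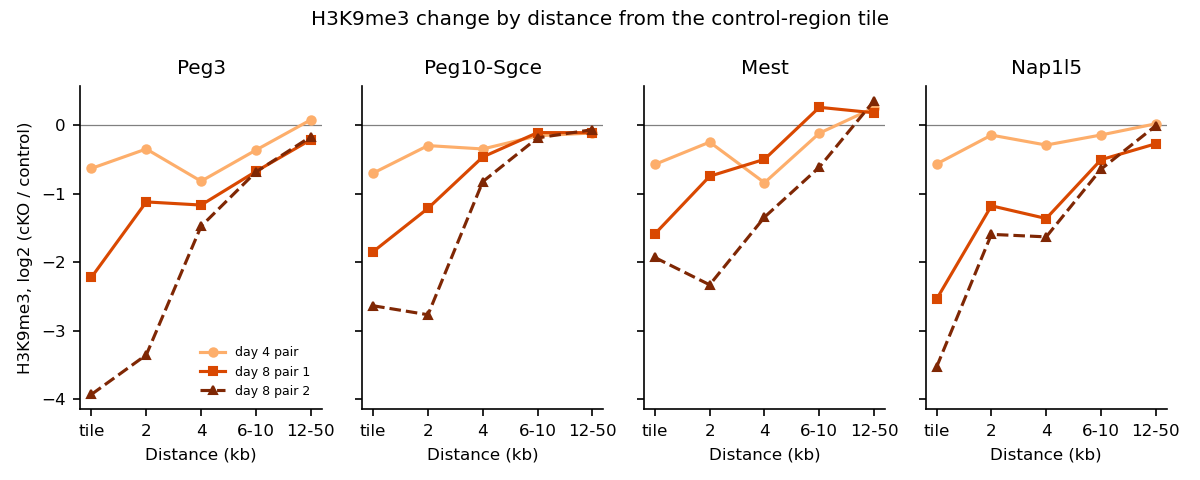
Log2 ratio of H3K9me3 in RPM, cKO over control (vertical axis), in the control-region tile and in tiles at 2, 4, 6 to 10 and 12 to 50 kb on either side (horizontal axis), for the day 4 pair and both day 8 pairs. The day 8 values are lowest in the tile or 2 kb from it and are nearer to 0 from 6 kb on than in the tile, and the day 4 values lie between them and 0 at the tile itself.

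Some other tiles of the *Peg10* window held high H3K9me3 and differed little between the groups. A tile within *Peg10*, 8 kb from the control region (chromosome 6, 4704001 to 4706000) and with 73 CpG sites, held 55 and 54 H3K9me3 reads in the day 8 controls and 18 and 46 in cKO cells. Given the library sizes, the pair differences were 0.12 and -0.24. A tile 34 kb away with 3 CpG sites held 47 and 44 reads in controls and 14 and 38 in cKO cells, with differences of -0.02 and -0.22. Both tiles had H3K9me3 well above the window median of 0.668 RPM and differed by at most 0.24 on the log2 scale in each pair. They were chosen after their values were seen, so they are no comparison group. Near the second, the tile starting at 4728001 had a mean day 8 difference of -0.02 ± 0.23 (SD, n = 2 pairs). The tiles starting at 4732001 and 4734001 had -1.53 ± 1.40 and -1.71 ± 1.25.

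At day 4, with 1 library per genotype and no replicate check, H3K9me3 at the control regions was lower in cKO cells by a smaller amount. The *Peg3* tile held 112 reads in the control and 92 in the deeper cKO library, a ratio in RPM of 0.647 (0.485 to 0.860). The ratio was 0.617 at *Peg10*-*Sgce* (83 and 65 reads, 0.439 to 0.863), 0.674 at *Mest* (83 and 71 reads, 0.484 to 0.936) and 0.676 at *Nap1l5* (92 and 79 reads, 0.494 to 0.923). All 4 ratios were below 1 beyond counting error, and 2 of 285 member tiles had a ratio of 0.5 or less, against 3.09% of all tiles with a mean of at least 10 reads. None of the 4 control-region tiles was among them.

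The day 8 difference lay further below 0 than the day 4 difference at all 4 control regions. The day 8 minus the day 4 log2 difference was -2.45 at *Peg3* (SE 0.94), -1.54 at *Peg10*-*Sgce* (SE 0.69), -1.19 at *Mest* (SE 0.65) and -2.47 at *Nap1l5* (SE 0.66). In the limma interaction of genotype and day, which takes the spread of day 4 from day 8, the adjusted p of each was 0.9998. No tile of the genome passed that test, a share of 0%, although 28001 tiles had an unadjusted p under 0.05, 8 of them members.

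H3K9me2 was scarce at the control regions. In the 3 control libraries the tiles held 2 to 4 reads at *Peg3*, 2 to 5 at *Peg10*-*Sgce*, 2 to 3 at *Mest* and 0 to 1 at *Nap1l5*, all below the input in RPM. The mean control level was 0.168 RPM at *Peg3* and 0.0433 RPM at *Nap1l5*, the lowest of all 52 tiles of its window. In cKO library 2 of day 8 the tiles held 11, 6, 11 and 10 reads at *Peg3*, *Peg10*-*Sgce*, *Mest* and *Nap1l5*, and in cKO library 1 they held 1, 5, 6 and 2.

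The mean H3K9me2 differences of -0.19 ± 2.24 (SD, n = 2 pairs), 0.16 ± 0.55, 1.60 ± 0.53 and 2.11 ± 1.03 in that order came from these few reads, and no member tile passed the test. Over the genome the share was 0%, with 80852 tiles at an unadjusted p under 0.05, and limma-voom called 12 tiles, none of them members. The same library stood high over CpG-rich tiles in general: in the 11236 tiles with 75 or more CpG sites its log2 ratio of summed reads to the control of the same number was 1.49, against 0.23 for cKO library 1. Its correlation with the input over tiles with a mean of at least 10 reads, 0.238, was the highest of the 18 ChIP libraries. The part of these in the H3K9me2 values was not tested.

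H3K27me3 is the mark of Polycomb repression, placed mostly over unmethylated CpG-rich start sites. In control cells the *Nap1l5* tile had the most of it among the control regions, 2.31 ± 0.71 RPM (SD, n = 3), and was the highest H3K27me3 tile of its window. *Peg10*-*Sgce* had 1.07 ± 0.27 RPM, *Mest* 0.970 ± 0.016 RPM and *Peg3* 0.520 ± 0.185 RPM, which was below the *Peg3* window median of 0.627 RPM. *Peg10*-*Sgce* and *Mest* did not differ by more than their spread, while *Nap1l5* lay above both and *Peg3* below both by more than the added SDs.

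At day 8 none of the 4 control regions passed the H3K27me3 test. *Nap1l5* held 65 and 41 reads in controls and 45 and 40 in cKO cells, a log2 difference of -0.38 (SE 0.30, adjusted p = 0.736). *Mest* held 20 and 22 against 6 and 19 (-1.07, SE 0.44, adjusted p = 0.405), and *Peg3* 15 and 8 against 4 and 9 (-0.96, SE 0.62, adjusted p = 0.654). *Peg10*-*Sgce* held 28 and 18 against 30 and 24 (0.16, SE 0.34, adjusted p = 0.926). Across the 11236 CpG-rich tiles the median H3K27me3 difference was -0.92, so *Peg10*-*Sgce* and *Nap1l5* lay above that median, and *Mest* and *Peg3* at or just below it. Over 3 tiles the summed day 8 H3K27me3 of *Peg10*-*Sgce* had a ratio of 1.60 (1.29 to 2.00), and that of *Nap1l5* 0.618 (0.504 to 0.756). For *Mest* it was 0.803 (0.652 to 0.990) and for *Peg3* 0.735 (0.503 to 1.07). The 3-tile ratios were not tested against the spread between libraries. At day 4, with 1 library per genotype, the ratio was 0.736 (0.498 to 1.08) for *Peg10*-*Sgce* and 0.874 (0.641 to 1.19) for *Nap1l5*. It was 0.804 (0.564 to 1.14) for *Mest* and 1.09 (0.675 to 1.77) for *Peg3*. The day 4 log2 differences of the control-region tiles were -1.02 at *Peg10*-*Sgce*, -1.05 at *Mest*, 0.11 at *Peg3* and 0.07 at *Nap1l5*. The higher 3-tile ratio at *Peg10*-*Sgce* was thus not seen at day 4, and at day 8 the control-region tile alone did not pass the test.

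In the test as described the H3K27me3 calls among the 318 member tiles were 2 higher tiles over the end of *Zim1*, a zinc-finger gene expressed from the maternal copy. The tile from 6630001 to 6632000 on chromosome 7, in the coding exon, held 26 reads in the day 4 control and 20 in the day 4 cKO library. At day 8 it held 13 and 22 reads in controls and 62 and 62 in cKO cells, a log2 difference of 1.78 (SE 0.30, adjusted p = 0.00281). The tile from 6628001 to 6630000, with the coding end and the untranslated region, held 9 and 18 reads at day 4. At day 8 it held 16 and 16 reads in controls and 49 and 51 in cKO cells (1.55, SE 0.30, adjusted p = 0.0116).

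With summed reads the day 8 ratio was 3.29 (2.25 to 4.94) in the first and 2.90 (1.93 to 4.47) in the second of these *Zim1* tiles. The groups did not overlap in either. At day 4 the ratio was 0.911 (0.482 to 1.70) in the first tile and 2.37 (1.01 to 5.99) in the second. The other 9 of the 11 tiles of *Zim1* did not pass, with the start-site tile at -0.46 (SE 0.31, adjusted p = 0.674). Both calls were lost in the limma fit without the trend (adjusted p = 0.567 and 0.582) and in the fit of all 18 ChIP libraries (adjusted p = 0.251 and 0.457). The first was also lost with day 4 and day 8 together (1.14, adjusted p = 0.172) and without control library 1 (1.45, adjusted p = 0.0859). The second was also lost with centring (1.46, adjusted p = 0.0606) and without cKO library 1 (1.39, adjusted p = 0.0511). Without control library 1 the count of member tiles called fell from 2 to 1.

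Over all tiles 0.0624% passed for higher and 0.182% for lower H3K27me3, and no member tile passed for lower. With same-numbered libraries as a block 7 member tiles passed for higher and 4 for lower. That fit called 27645 of 1255417 tiles of the genome, 11720 higher and 15925 lower. Without cKO library 1 the calls among member tiles also ran in both directions. With each library centred on its median, the calls over the genome went from 783 higher and 2284 lower to 130 higher and 1282 lower. H3K27me3 was raised 2-fold or more in each pair in 4 of 247 member tiles with a mean of at least 10 reads, against 0.885% of all such tiles. None had 0.5 times the control or less in each pair, against 0.868%. Besides the 2 *Zim1* tiles these were intergenic tiles on either side of *Usp29*, which held 18 and 10 reads in controls and 36 and 27 in cKO cells in the first and 7 and 7 against 19 and 24 in the second.

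**Figure D4:**
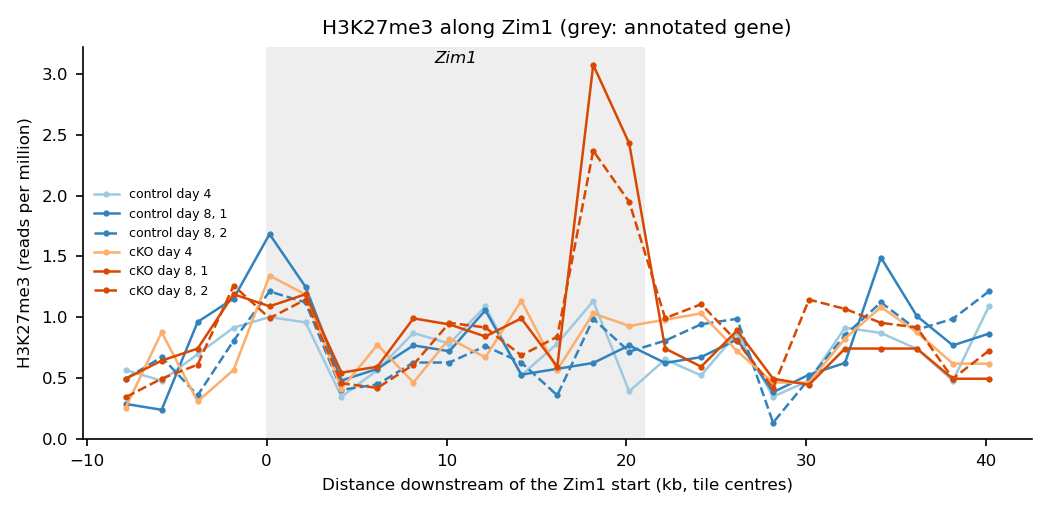
H3K27me3 in RPM (vertical axis, from 0) along *Zim1* by distance downstream of its start in kb (horizontal axis, tile centres), 1 line per library, with the annotated gene in grey. Both day 8 cKO libraries rise above all others in the last 2 tiles of the gene.

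*Zim1* and *Usp29* share the *Peg3* control region. In control cells the log2 H3K9me3 level in the tiles of their annotated starts was -0.16 and -0.25, far below the 2.77 of the *Peg3* tile. The input stood at -0.76 and -0.63 in the start tiles of *Zim1* and *Usp29*. The *Zim1* start-site tile held 17 and 12 reads in the day 8 controls and 3 and 4 in cKO cells, with pair differences of -0.78 and -1.59. *Usp29*, a gene of a ubiquitin-specific protease, is annotated here as only 2610 bases without untranslated exons, so its tile may not hold the transcription start. That tile held 14 and 17 reads in controls and 4 and 12 in cKO cells, with differences of -0.08 and -0.51.

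Measured over the 1 kb upstream of the annotated start, *Nap1l5* was the member promoter with an H3K9me3 call (-2.22, SE 0.30, adjusted p = 0.0138, over 23640 promoters), a call that was lost without the trend, where none of the promoters passed. Over all promoters 0.0254% passed for lower H3K9me3. The promoters of *Sgce* (-2.61, SE 0.51, adjusted p = 0.222), *Peg3* (-2.51, SE 0.50, adjusted p = 0.235) and *Peg10* (-2.24, SE 0.40, adjusted p = 0.0891) missed the threshold. Those of *Zim1* (-0.86) and *Usp29* (-0.30) had smaller differences. The annotated promoter of *Mest* lies upstream of the control region, at the start of a longer transcript, and its difference was 0.38 (SE 0.44). No member promoter passed for lower H3K27me3, where the share over all promoters was 4.57%. Averaged over gene bodies, no member passed for H3K9me3 or H3K27me3. The share over all genes was 0% for both, with 2426 and 4307 genes at an unadjusted p under 0.05.

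The start sites of neighbouring genes were compared with those of the members. Of 20 neighbour names, 15 were found in the annotation, among them *Casd1* and *Asb4* near *Peg10*, *Copg2* and *Klf14* near *Mest*, and *Herc3* and *Fam13a* near *Nap1l5*. None of the names listed near *Peg3* (*Zim2*, *Zim3* and *Zfp264*) was found, so no neighbour of *Peg3* was compared. Their start-site tiles had day 8 H3K9me3 differences from -1.32 to 0.71 with a median of -0.04, and none had 0.5 times the control or less in both pairs. In control cells the log2 H3K9me3 level of these neighbour tiles ran from -2.47 to -0.25 with a median of -1.25, against a member median of 2.22. The neighbours thus held little H3K9me3 to lose, and the comparison cannot show whether a loss would have spared them. The start-site tiles of the 7 members ran from -3.08 to -0.30, the last being the *Usp29* tile. Their median was -2.24, with *Peg10* and *Sgce* counted on the same tile. The 5 genes with 0.5 times the control or less in both pairs were *Peg3*, *Peg10*, *Sgce*, *Mest* and *Nap1l5*. Their start-site tiles are the control-region tiles themselves, so this count adds nothing to them. Of all tiles with a mean of at least 10 reads, 1.51% had such a decrease. The difference between members and neighbours was not tested. None of the promoters of these 15 neighbours passed the limma test for any of the 3 marks. *Klf14*, an imprinted gene without introns, had 430 and 268 H3K27me3 reads at its start in controls and 177 and 134 in cKO cells, with differences of -1.24 and -1.23. H3K27me3 was also lower at many other such sites. The median difference over CpG-rich tiles was -0.92, and the starts of the 5 lineage genes ran from -1.18 to -0.59.

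**Figure D5:**
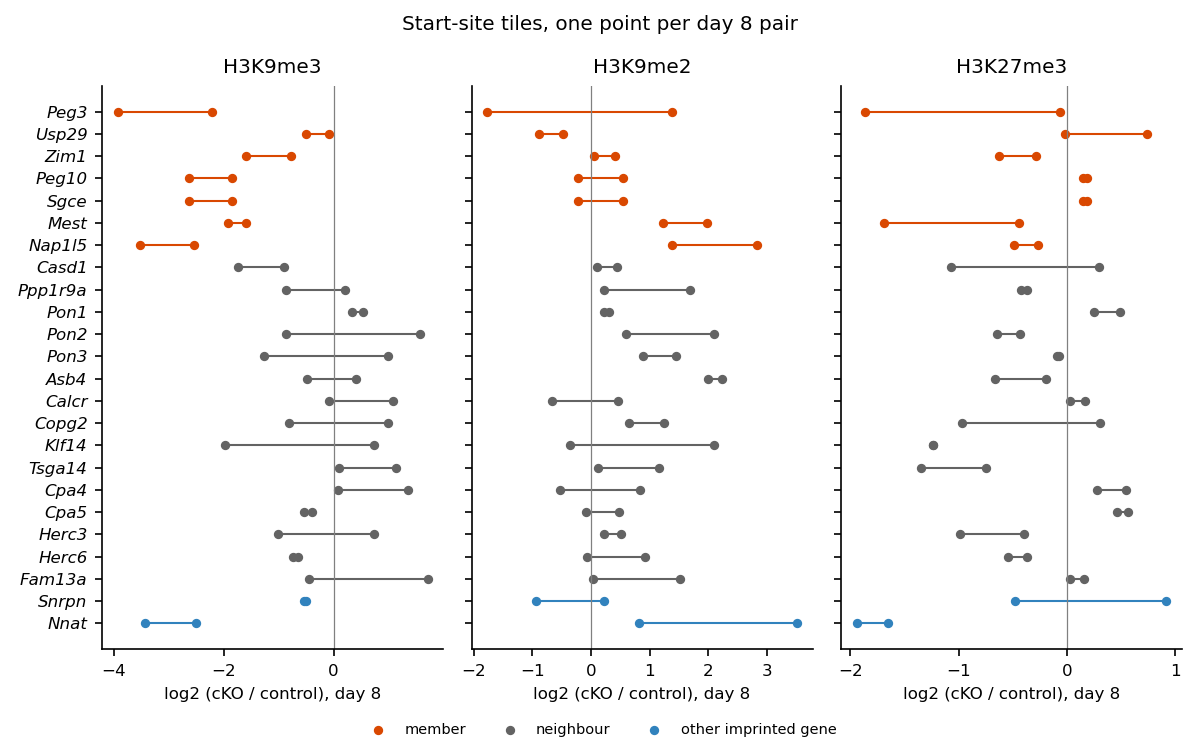
Day 8 log2 ratio of cKO over control (horizontal axis) in the start-site tile of each gene (rows) for the 3 marks, 1 point for each of the 2 pairs joined by a line. The members with a control region at their start lie to the left in H3K9me3, from -3.93 to -1.59 over single pairs, and single pairs of the neighbours run from -1.97 to 1.71.

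The start-site tiles of 2 other imprinted genes were set beside these. *Nnat*, the neuronatin gene, had 170 and 107 H3K9me3 reads in the day 8 controls and 9 and 10 in cKO cells, with pair differences of -2.51 and -3.43, within the range of the 4 control regions. Its H3K27me3 went from 39 and 36 reads to 12 and 11, with differences of -1.66 and -1.94. The same pairs gave -1.86 and -0.06 at *Peg3*, -1.69 and -0.45 at *Mest*, -0.49 and -0.27 at *Nap1l5* and 0.14 and 0.18 at *Peg10*-*Sgce*. The *Snrpn* tile was that of an upstream exon, with 14 and 13 H3K9me3 reads in controls and 3 and 9 in cKO cells. The differences between these genes and the members were not tested.

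Over the 18 ChIP libraries the log2 values of the 4 control-region tiles correlated with each other, with Pearson's r from 0.782 (*Peg3* and *Nap1l5*) to 0.914 (*Peg10*-*Sgce* and *Nap1l5*). These points share the mark, the depth and the deletion, so r describes mainly the contrast between marks. Among 6842 start-site tiles outside the windows, the most similar to *Nap1l5* were *Plagl1*, a zinc-finger gene (r = 0.970), *Gnas*, the gene of a G-protein subunit (0.963), and the non-coding RNA *Airn* (0.938). For *Mest* they were *Nespas*, an antisense RNA of the *Gnas* locus (0.944), *3110070M22Rik* (0.934) and *Nnat* (0.926). For *Peg10*-*Sgce* they were *Nespas* (0.934), *Airn* (0.909) and *Rcvrn*, which encodes recoverin (0.895), and for *Peg3* *4933422H20Rik* (0.938), *Nespas* (0.927) and *Pnpla1* (0.90). Their day 8 H3K9me3 differences were unlike: -3.21 at *Plagl1*, -2.97 at *Nnat*, -2.82 at *Pnpla1*, -2.34 at *Nespas*, -2.33 at *Gnas* and -2.13 at *Airn*. They were smaller at *Rcvrn* (-0.90), *4933422H20Rik* (-0.89) and *3110070M22Rik* (-0.15), so a high r did not mean a like loss.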

How the data were processed

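The authors trimmed the reads with Trim Galore, aligned them to NCBIM37 with Bowtie2 (version 2.2.9 per the labels), discarded low mapping qualities and, in SeqMonk, deposited log2 values of observed over expected reads in 2 kb tiles; the methods speak of 1 kb tiles. The input was not subtracted, and removal of duplicates is not given in the sources used here. Reads mapping to several places were thereby lost.

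From the deposited log2 values the read numbers were recovered (whole to within 0.02 reads in 100% of values; a tile without reads is written as 0.9 reads). All 22 chromosome lengths matched the reference used for sequence and annotation. Differences were tested in R 4.3.3 by moderated statistics of limma 3.58.1 (eBayes with trend, two-sided, Benjamini-Hochberg) over the tiles with a read in at least 1 of the 4 day 8 libraries of a mark. The study made no test of ChIP-seq, which it describes as a single measurement. The trend was chosen knowing that a fit without it calls no tile, and members, lists and motifs were chosen with earlier results of these data known. Genes were named by rule: the members, listed neighbours, per window and mark the tile of largest change with a mean of at least 10 reads, and the 3 most similar start-site tiles. The start-site tile is the tile with most transcript starts of a gene. *Kcnq1ot1* was not analysed here. The procedure was run on simulated reads that varied by counting error only. That run held no further spread between libraries, so it cannot check the calls against such spread. Alternatives are given in the closing section. Python 3.11.15, numpy 2.4.6, pandas 2.3.3, scipy 1.17.1 and matplotlib 3.10.9 were used.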

Additional observations from a re-analysis of the deposited data

How the results depend on the processing

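H3K9me3 at the 4 control regions was lower in every alternative run, but the calls moved. Each group had 2 libraries, with down to 6 reads in a control-region tile, and the cause of each change was not tested. Without a trend in the variance the differences (-3.08, -2.24, -1.76 and -3.04 at *Peg3*, *Peg10*-*Sgce*, *Mest* and *Nap1l5*) had an adjusted p of 0.773 each, and 0 member tiles passed for H3K9me3 and 0 for H3K27me3. With the replicate block (same-numbered libraries taken as pairs) adjusted p was 0.111, 0.178, 0.173 and 0.0545 for the same differences. In that fit 0 member tiles passed for H3K9me3 and 11 for H3K27me3 (7 higher, 4 lower), against 7 and 27645 tiles over the genome. The numbers are not stated to pair libraries, and their deviations correlated by only 0.0437, 0.0514 and 0.0966 for H3K9me3, H3K9me2 and H3K27me3. In a fit of all 18 ChIP libraries *Peg3* (adjusted p = 0.170), *Peg10*-*Sgce* (0.127) and *Nap1l5* (0.0694) missed the threshold, and 0 member tiles passed for H3K9me3 or H3K27me3. With day 4 and day 8 together *Peg3* (-2.26, 0.193) and *Peg10*-*Sgce* (-1.73, 0.156) missed it, and 1 member tile passed for H3K9me3 and 1 for H3K27me3. Over the genome 27 tiles passed for H3K9me3 and 896 for H3K27me3 with both days together. The fit of all 18 ChIP libraries called 44 and 0. Centring moved the median of all H3K9me3 tiles from -0.04 to 0.10, put *Peg10*-*Sgce* at -2.10 (adjusted p = 0.258) and left 1 member tile for H3K27me3. With limma-voom *Mest* passed (-1.85, adjusted p = 0.00864) with 12 member tiles, all lower, among 485 tiles called over the genome. With tiles of at least 10 reads *Mest* also passed (-1.76, 0.00404) with 13 member tiles, all lower, among 1309 tiles called. The summed ratio of *Mest* was -2.04, and 3 tiles summed gave -1.99 at *Nap1l5*. Leaving out 1 library gave -4.46 to -1.69 at *Peg3*, -2.99 to -1.50 at *Peg10*-*Sgce*, -2.36 to -1.16 at *Mest* and -3.76 to -2.31 at *Nap1l5*, with 2 to 23 member tiles for H3K9me3 and 1 to 3 for H3K27me3; the lone library of a group is then assumed to vary like the other group. H3K9me2 gave 0 member tiles throughout.

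Of the differences without a call, H3K9me2 changed sign at *Peg3* without cKO library 1 (1.40; range -1.79 to 1.40 over libraries left out) and at *Peg10*-*Sgce* without control library 1 (-0.22; -0.22 to 0.55). H3K27me3 changed sign at *Peg10*-*Sgce* without cKO library 1 (-0.19) or control library 2 (-0.21; range -0.21 to 0.53) and at *Nap1l5* without control library 1 (0.0038; -0.76 to 0.0038). The promoter call of *Nap1l5* was lost without the trend, leaving 0 of 1.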
